A study of Mus musculus with 74 samples.

Results

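The neurons described here are YFP-positive sensory neurons of the lumbar L4 dorsal root ganglion (DRG), sorted by fluorescence-activated cell sorting (FACS) 1 day after sciatic nerve injury (SNI). They were taken as every sorted library whose title carries SNI and day 1, which gives 12 wells from 4 mice, and they were set against every sorted naive library, 18 wells from 6 mice. Each mouse gave 3 wells of about 100 cells, these were added together, and each mouse counted as 1 replicate. The series holds 74 libraries, of which 66 are sorted wells from 22 mice and 8 are whole DRG that were not used here. The other sorted groups are SNI at 3 days and spinal cord injury (SCI) at 1 and 3 days, with 4 mice each.

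All sorted mice were females of 10 to 20 weeks that carry the Thy1-YFP16 transgene, in which a Thy1 promoter drives YFP in large-diameter sensory neurons, among them those that ascend in the dorsal column. The genotype label counts upwards by 1 from sample to sample after Thy1YFP16 while the strain label stays at Thy1YFP16, so the strain was read as the line. SNI was a crush of the sciatic nerve at mid-thigh for 5 s, and naive mice had no injury. Titles name 2 sets, FACS with 2 SNI and 4 naive mice and FACS2018 with 2 SNI and 2 naive mice, and say nothing more of how the sets differ. SNI 1d replicates 1 and 2 and naive replicates 1 to 4 are of set FACS. The titles also give each naive mouse a day, 1 for naive replicates 1, 2 and 5 and 3 for replicates 3, 4 and 6, and all 6 were used; with the 3 naive mice of day 1 alone, the count of called genes given below falls from 122 to 3. The labels say no more of how the mice were processed, so p-values measure the spread between these mice. The study removed outlier samples before its own tests, the labels do not name them, and all deposited mice were kept.

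A peripheral axon that is cut or crushed sends injury signals back to the cell body, where kinases such as DLK and JNK and the gp130 cytokine pathway act on transcription. Regeneration-associated transcription factors (RATFs) such as ATF3, SOX11 and JUN are then raised, and with them come growth cone proteins, neuropeptides and receptors, while ion channels and transmitter machinery tend to fall. The central axon of the same neuron runs in the spinal cord and regrows poorly when it is injured there.

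Summed over its wells, a mouse had 30518187 to 79826087 reads on genes after SNI and 47699504 to 74653760 in the naive group. Single wells ranged from 1494217 reads, in the third well of SNI 1d replicate 4, to 29584708 reads after SNI. They held 9358 to 17864 detected genes after SNI and 10599 to 17837 in naive mice. Pan-neuronal reads were nearly missing from some wells. In 3 of 12 SNI wells and 6 of 18 naive wells, 7.12% to 10.1% and 6.95% to 12.5% of reads, respectively, fell on 13 satellite glia and Schwann cell markers, while pan-neuronal markers took 0.0265% to 0.0492% and 0.00991% to 0.0563%. Markers of large-fibre neurons were not missing from these wells, at 0.349% to 0.847% and 0.299% to 1.06%. The remaining 9 SNI wells and 12 naive wells had at most 1.46% and 1.74% of reads on the glial list and at least 1.83% and 1.65% on the pan-neuronal list. Wells with over 2% of reads on the glial list are called glia-rich here, and no SNI or naive well lay between 1.74% and 6.95%. SNI 1d replicates 1, 2 and 3 and naive replicates 1 and 2 had 1 such well each, and naive replicates 5 and 6 had 2 each. Nothing in the labels separates these wells from the others, so they stayed in the main comparison, and the counts and the main genes are also given without them.

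**Figure D1:**
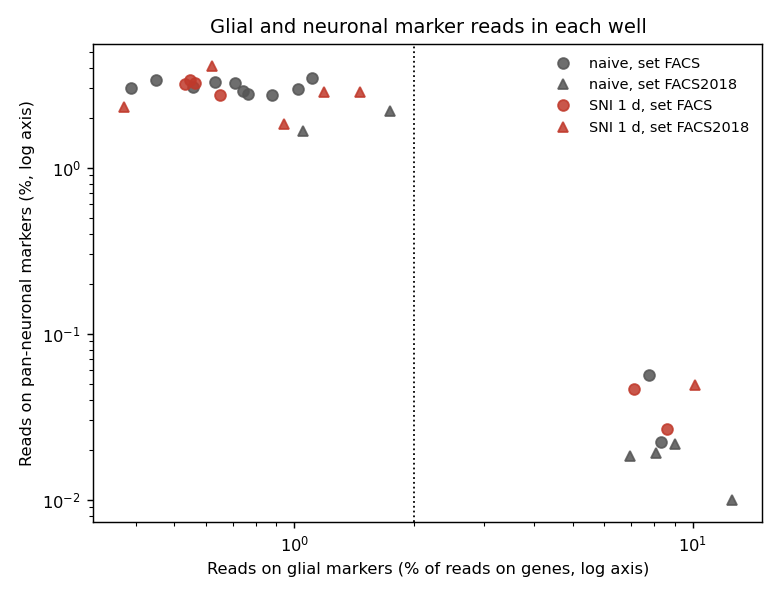
Each point is 1 well of naive (grey) or SNI 1d (red) mice, with the share of its reads on 13 glial markers on the horizontal log axis and on 12 pan-neuronal markers on the vertical log axis; circles are set FACS, triangles FACS2018, and the dotted line stands at 2%. The 9 glia-rich wells lie far below the other 21 wells on the neuronal axis.

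In most wells that were not glia-rich, markers of large-fibre neurons exceeded those of nociceptors. Markers of proprioceptors and low-threshold mechanoreceptors took a median of 1.17% of reads in these SNI wells and 1.42% in these naive wells, led by the neurofilament gene Nefl. The same list took medians of 0.443% and 0.377% in the glia-rich wells, with up to 0.847% and 1.06%, so the ranges overlapped. In the wells that were not glia-rich, nociceptor markers took medians of 0.0683% and 0.104%, led by Calca. In 3 wells they exceeded the large-fibre markers, at 3.54% against 0.561% in SNI 1d replicate 4, 3.77% against 0.194% in naive replicate 5 and 1.09% against 1.02% in naive replicate 2. Naive replicate 5 kept only that well once glia-rich wells were set aside. Several of the lowest or highest naive values below are those of naive replicate 5. Macrophage markers took 6.72% and 3.55% of reads in the glia-rich wells of naive replicate 6 and 3.08% in that of SNI 1d replicate 3. Without glia-rich wells the macrophage list still summed to 6.93, 18.4, 1232 and 172 CPM (reads per 1e6 reads on genes, scaled by TMM) in the 4 SNI mice, against at most 78.6 CPM in a naive mouse. All 7 of its members tested there were positive, with a median log2 fold change of 4.21, and 1, Tyrobp, was called with factors and none without. Fibroblast markers summed to 33.3, 116, 1034 and 35.7 CPM in the SNI mice, against at most 93 CPM in a naive mouse. SNI 1d replicate 3 exceeded every naive mouse for both lists, replicate 4 for macrophage and replicate 2 for fibroblast markers, and the part of these reads in the results from these wells was not tested.

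Over whole mice, none of the 9 marker lists passed an adjusted p of 0.05, SNI against naive neurons. The test was an exact two-sided permutation test of 4 against 6 mice, whose smallest possible p is 0.00952. Adjusted over 9 lists, a single list at that p would not pass 0.05, so these tests cannot show that the shares were equal. Glial markers took 1.66%, 1.88%, 3.92% and 0.689% of reads in the 4 SNI mice and 0.686% to 8.07% with a median of 1.6% in naive mice, a log2 difference of -0.20 with an adjusted p of 1. Pan-neuronal markers took 2.52%, 2.73%, 2.03% and 3.45% after SNI and 0.712% to 3.18% with a median of 2.6% in naive mice, a log2 difference of 0.55 with an adjusted p of 1. Macrophage markers reached 0.995% in SNI 1d replicate 3 and 3.27% in naive replicate 6 and were at or below 0.0816% in every other mouse, with Cd74 the most abundant of the list. All 8 neutrophil markers, 5 of 6 endothelial markers and all 5 blood markers had a mean under 1 CPM after SNI. Because these are bulk wells, fewer cells of a type and less RNA per cell cannot be told apart.

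A small set of genes, among them Atf3, Sox11, Crot and Msh6, was higher in every SNI mouse than in any naive mouse, and fewer were lower. With 20 or more reads in at least 1 mouse as the filter, 23507 genes were tested by edgeR's quasi-likelihood test on 22 mice with 2 RUVr factors, which stand for variation the groups do not account for. The study used the same kind of factor. At an adjusted p under 0.1, 118 genes were higher after SNI (0.502% of genes tested) and 4 lower (0.017%). All 4 SNI mice lay above all 6 naive mice in 305 genes (1.3%) and below them in 98 (0.417%), called separated below, and 52 of the higher and 2 of the lower genes that were called were of this kind. If the mice were exchangeable between groups, a gene would be separated in a given direction with a chance of at most 1 in 210. The share separated lower was no larger than this. The call depends on the factors: without them edgeR called 0 genes, with 2435 genes at an unadjusted p under 0.05, and DESeq2 called 352 without and 1447 with them. The fit was also made on the wells that were not glia-rich (neuronal wells), with and without factors, on 22620 genes in 20 mice. With factors it called 1177 genes higher (5.2%) and 201 lower (0.889%), and without them 33 higher (0.146%) and 5 lower (0.0221%). Of the 122 genes called on all wells, 95 were called in the neuronal wells with factors and 22 without. The median log2 fold change of all genes was 0.15 on all wells, and in the neuronal wells 0.33 with and -0.07 without factors, so single changes are to be read against these shifts.

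Atf3, a stress-induced bZIP transcription factor and a standard marker of axotomized sensory neurons, rose in all 4 mice. It lies on chromosome 1 from 191170296 to 191218039 on the minus strand (GRCm38). Its level was 874, 583, 1305 and 1174 CPM in the SNI mice, against 14.2 to 225 with a median of 59.6 in the naive mice, or 984 ± 322 (SD, n = 4) against 80.9 ± 78.2 CPM (SD, n = 6). The lowest SNI mouse was above the highest naive mouse, naive replicate 4. The log2 fold change was 3.78 ± 0.67 (SE) with an adjusted p of 0.0258 by edgeR, and in the neuronal wells it was 3.75 (0.0149 with factors and 0.0622 without). Within set FACS the log2 fold change was 3.44 and within FACS2018 4.66, with adjusted p-values of 0.278 and 0.347, where fits of 2 SNI mice called no gene.

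Sox11, a SRY-box transcription factor of developing neurons on chromosome 12 from 27334264 to 27342574 on the minus strand, had 1034, 694, 1224 and 424 CPM in the SNI mice and 4.37 to 269 with a median of 53.6 CPM in the naive mice. The groups did not overlap. The log2 fold change was 3.64 ± 0.79 with an adjusted p of 0.0706, and 0.00547 and 0.035 in the neuronal wells with and without factors. Leaving out 1 mouse on all wells ended its call in 7 of 10 fits, with adjusted p-values up to 0.171. Within the 2 sets the log2 fold change was 3.19 and 5.70.

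Crot, which encodes the peroxisomal carnitine O-octanoyltransferase and lies on chromosome 5 from 8966033 to 8997324 on the minus strand, changed less and varied little. Its level was 314, 352, 438 and 323 CPM after SNI and 58.4 to 135 with a median of 121 CPM in naive mice. The log2 fold change was 1.70 ± 0.30 (adjusted p = 0.023), with 0.0247 in the neuronal wells without factors. Its SE was the smallest among the 12 higher genes named by the rule, and every SNI mouse lay above every naive mouse.

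Spns3, of the spinster family of transporters, and Upp1, uridine phosphorylase, went from near absence to a low level. Spns3 (on chromosome 11 from 72494919 to 72550506 on the minus strand) had 20.6, 7.41, 4.62 and 36.5 CPM after SNI, whereas the 6 naive mice held 6 reads in all. The ratio of summed reads per total was 886, with an exact 95% interval for counting error only of 407 to 2416, and the adjusted p was 0.00405 by edgeR and 0.00825 in the neuronal wells without factors. Upp1 (on chromosome 11 from 9118103 to 9136170 on the plus strand) had 8.9, 9.81, 6.08 and 21.6 CPM after SNI and at most 0.435 CPM in a naive mouse (adjusted p = 0.0554, and 0.0739 without factors in the neuronal wells). Both genes were seen in all 4 SNI mice, and no naive mouse reached the lowest of them.

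Msh6, a DNA mismatch repair protein, had 149, 232, 203 and 218 CPM after SNI and 4.29 to 27.8 with a median of 11.5 CPM in naive mice (log2 fold change 3.87 ± 0.74, adjusted p = 0.0383). Rhoc, a small GTPase that acts on the actin cytoskeleton, had 248, 126, 292 and 176 CPM after SNI and 10.4 to 81.9 with a median of 24.1 CPM in naive mice (2.61 ± 0.50, adjusted p = 0.0383). In the neuronal wells without factors their adjusted p-values were 0.035 and 0.0363. The lincRNA gene Gm19705 also passed on all wells and in the neuronal wells with and without factors, at 17.4, 12.6, 12.2 and 5.92 CPM against 0.0743 to 5.39 with a median of 0.203 CPM. The SNI mice were the higher group for all 3 genes, with the narrowest gap for Gm19705, whose highest naive mouse was replicate 5.

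Of 4 genes called lower, 2 had groups that did not overlap. Trib2, a Tribbles pseudokinase, fell. Its level was 1.7, 6.31, 5.18 and 5.43 CPM after SNI and 34.2 to 140.1 with a median of 72.7 CPM in the naive group, which gave -4.05 ± 0.89 on the log2 scale (adjusted p = 0.073, and 0.0737 in the neuronal wells without factors). The second was Dsel, an epimerase-like enzyme of dermatan sulfate synthesis, at 4.54, 5.42, 6.33 and 7.36 CPM against 13.6 to 129 with a median of 33.9 CPM (adjusted p = 0.0554). Its highest naive levels were in replicates 5 and 6, each with 2 glia-rich wells. The other 2, Bcl11b, a zinc finger transcription factor, and Nwd2, overlapped, at 0, 0.025, 0.0643 and 0.402 CPM against 0.13 to 24.3 with a median of 7.19 CPM and 1.41, 0.275, 0.0386 and 0.144 CPM against 0.156 to 48.1 with a median of 29.4 CPM (adjusted p = 0.0958 and 0.0703), and were named after their values were seen. Dsel gave a log2 fold change of -2.75 on all wells and of -1.21 in the neuronal wells with factors (adjusted p = 0.127) and -2.45 without (0.315), and its groups overlapped in those wells.

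A further 5 genes of the rule passed on all wells and did not pass in the neuronal wells without factors. Tubb6, a beta-tubulin class raised in growing axons, had 788, 471, 613 and 801 CPM after SNI and 0.604 to 187 with a median of 49.1 CPM in naive mice (log2 fold change 4.0 ± 0.72, adjusted p = 0.0258 and 0.154). Flrt3, a leucine-rich repeat membrane protein of axon guidance, had 1144, 725, 1164 and 682 CPM after SNI and 14.4 to 204 with a median of 40.6 CPM in naive mice (3.69 ± 0.67, adjusted p = 0.0279 and 0.117). The groups were apart for both. Tubb6 was at 0.604 CPM in naive replicate 5, without which its log2 fold change was 3.17, and it was 2.93 within FACS and 6.74 within FACS2018. Cdc42ep2, a CDC42 effector, Lins1 and the tyrosine phosphatase gene Ptpn23 also passed, with adjusted p-values of 0.0561, 0.0608 and 0.0554. Here naive replicate 5 or 6 was by far the lowest mouse: Cdc42ep2 had 0.327 CPM in replicate 5 and at least 27.5 CPM in every other naive mouse. Within set FACS, where neither mouse belongs, the log2 fold change of Ptpn23 was 0.74, against 2.66 over all mice. That of Cdc42ep2 was 1.44 within set FACS and 2.46 over all mice.

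**Figure D2:**
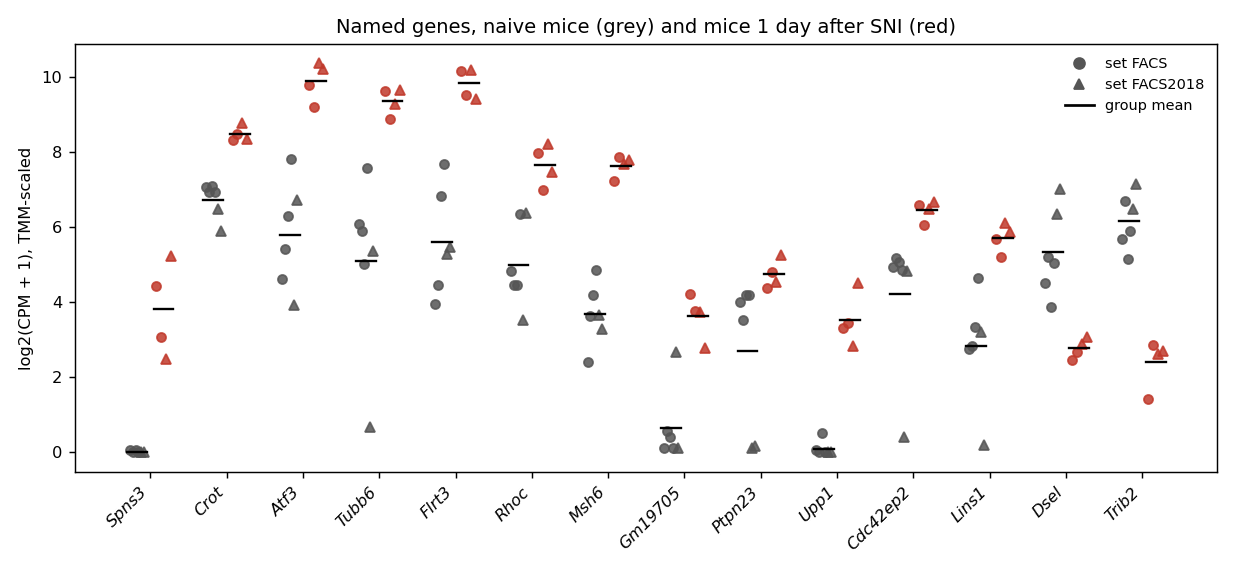
The 14 genes named by the rule, 12 of the 52 called higher and the 2 called lower without overlap between SNI and naive mice, are shown with 1 point per mouse on a log2(CPM + 1) axis, naive in grey, SNI 1d in red, circles for set FACS and triangles for FACS2018, and a bar at the group mean. Every red point of the first 12 genes lies above every grey point, and every red point of Dsel and Trib2 lies below.

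Among the 13 RATFs, 2 were called higher, Atf3 and Sox11, and none lower, where 0.502% of all genes were called higher; 12 had a positive log2 fold change. The list's median was 0.79, beside 0.15 over all genes tested. Smad1, a mediator of BMP signalling, had 74.6, 47.5, 109.5 and 61.6 CPM after SNI and 16 to 39.5 with a median of 21.4 CPM in naive mice without overlap, and its log2 fold change of 1.62 ± 0.43 did not pass (adjusted p = 0.134). Klf6 had 415, 165, 1033 and 330 CPM against 53.6 to 858 with a median of 88.3 CPM, with the 2 highest naive values in the glia-rich replicates 5 and 6 (adjusted p = 0.164). Of the 4 SNI mice 3 lay within the naive range of Klf6.

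In the neuronal wells with factors 6 of the 13 were called higher, where 5.2% of all genes were, among them Klf6 at a log2 fold change of 1.90 (adjusted p = 0.00205) and Smad1 at 1.46 (0.0149). Without factors the count was 2, again Atf3 and Sox11, and Klf6 gave 0.88 (0.581). Over all wells the log2 fold change of Klf6 was 1.98 within set FACS and -0.65 within FACS2018. Jun, which pairs with other bZIP factors and is a target of JNK, had 252, 140.4, 172 and 88.8 CPM after SNI and 58.1 to 285 with a median of 88.3 CPM in naive mice (log2 fold change 0.71 ± 0.38, adjusted p = 0.418). Its direction turned between the sets, with 1.53 within FACS and -0.78 within FACS2018. Xbp1, a factor of the unfolded protein response, gave 1.71 ± 0.59 (0.227) and Klf7 0.76 ± 0.33 (0.313). For Stat3, Hif1a, Trp53, Myc, Creb1 and Srf the log2 fold changes were 0.41, 0.16, -0.27, 0.83, 0.48 and 0.79, with adjusted p-values from 0.485 for Stat3 to 0.939 for Hif1a. Their SNI and naive values overlapped.

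Among the 27 lists, the genes known to rise in axotomized sensory neurons held the most members whose groups did not overlap. The members of this list were chosen with earlier results of these data known, so its rank is no independent check. Of 30 members 29 were tested, 28 had a positive log2 fold change, 5 were called higher and none lower, and 11 had all SNI mice above all naive mice, beside 0.502% and 1.3% of all genes. The list's median log2 fold change was 2.26. That of the 11 macrophage markers on all wells was 2.55, with 9 positive values and none called. The axotomy-induced members called were Tubb6 and Flrt3, given above, Adcyap1, Gadd45a and Tifa. Adcyap1, the neuropeptide PACAP, had 561, 576, 881 and 823 CPM after SNI and 10.9 to 356 with a median of 33 CPM in naive mice (log2 fold change 3.86 ± 0.83, adjusted p = 0.0703). Its highest naive value was in replicate 5, which also held the nociceptor-rich well. Gadd45a, a stress and DNA damage response gene, had 455, 348, 143 and 113 CPM against 7.28 to 86.8 with a median of 18.4 CPM (3.10 ± 0.70, adjusted p = 0.0798). Tifa, an adaptor of TRAF6 signalling, had 335, 224, 185 and 344 CPM against 1.4 to 71.7 with a median of 26.9 CPM (3.29 ± 0.69, adjusted p = 0.0664). Leaving out 1 mouse ended the call of Adcyap1 in 7, of Gadd45a in 9 and of Tifa in 6 of 10 fits. In the neuronal wells without factors the 3 had adjusted p-values of 0.331, 0.11 and 0.131.

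Another 6 members were separated without a call, and those of them given here, like the remaining members named with this list, include genes chosen after their values were seen. Plaur, the urokinase receptor, had 396, 251, 266 and 188 CPM after SNI and 0.0755 to 67.5 with a median of 1.15 CPM in naive mice, where replicate 6, which held the macrophage-rich wells, was highest (log2 fold change 5.54 ± 1.71, adjusted p = 0.184). Sprr1a, a small proline-rich protein of regenerating axons, had 13, 153, 23.7 and 178 CPM after SNI and 0 to 12.9 with a median of 0.732 CPM in naive mice (5.62 ± 1.60, 0.154). Its lowest SNI value lay just above its highest naive value. Csf1, a macrophage growth factor, had 69.9, 29.7, 36.4 and 90.9 CPM against 0.0252 to 22.4 with a median of 3.77 CPM (3.67 ± 1.40, 0.26). Itga7, an integrin subunit that binds laminin, had 174, 169, 242 and 248 CPM against 27.8 to 90.3 with a median of 50.7 CPM (1.81 ± 0.58, 0.195). It was the only member of the list called in the neuronal wells without factors, at 0.0601. Lmo7 and Stmn4, a stathmin of microtubules, were the other 2, with log2 fold changes of 3.82 ± 1.21 and 2.20 ± 0.79.

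Of the 29, the neuronal wells with factors had 17 called higher and none lower, where 5.2% of all genes were called higher and 0.889% lower, among them Plaur at 6.88 (adjusted p = 0.0195), Lmo7 at 5.19 (0.0183), Sprr1a at 5.96 (0.0471) and Bdnf, a neurotrophin, at 2.97 (0.0236). Other members varied from mouse to mouse. The neuropeptide galanin (Gal) had 0, 10.2, 660.5 and 7.15 CPM after SNI and 0.026 to 157 with a median of 4.13 CPM in naive mice. Npy had 2.06, 40.7, 0.0257 and 1.78 CPM after SNI and 0 to 140.2 with a median of 0.52 CPM in naive mice. The groups overlapped for both, and for the growth cone protein gene Gap43, with 108, 364, 905 and 1396 CPM against 3.62 to 1279 with a median of 467 CPM. Hspb1, a small heat shock protein, had 18.1, 3.32, 8.77 and 17.3 CPM against 0.104 to 17.4 with a median of 13.5 CPM. Vip and Ecel1 were seen almost only in SNI 1d replicate 3, at 4.58 and 5.85 CPM.

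**Figure D3:**
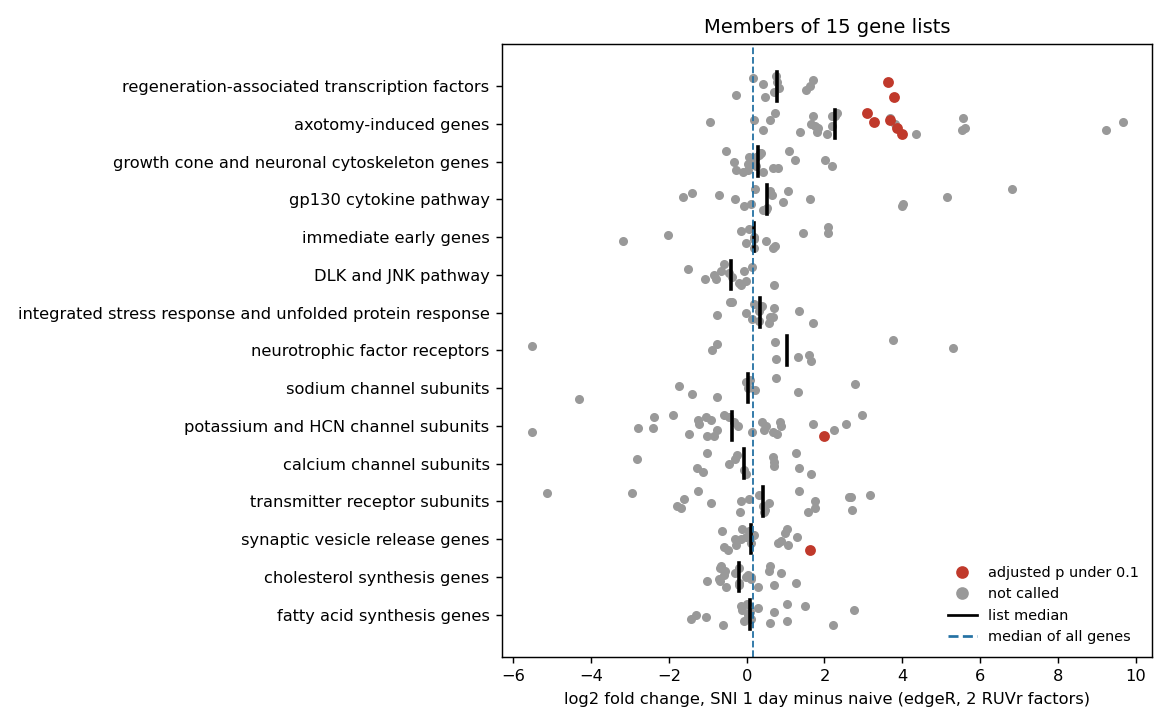
Each point is the log2 fold change of 1 tested member of a gene list, SNI 1d minus naive, from the fit on all wells; red points have an adjusted p under 0.1, black bars are list medians and the dashed line is the median of all genes tested, 0.15. Of the 15 lists plotted, which leave out the cell type markers and the respiratory chain, mitochondrially encoded and ribosomal protein lists, the axotomy-induced list has the median furthest to the right, 2.26, and 5 red points. The macrophage markers, which are not plotted, had a larger median of 2.55. The lists and their members were chosen with earlier results of these data known.

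On all wells no gene of the lists for the signalling steps before transcription was called. In the neuronal wells with factors, where 5.2% of all genes were called higher, 3 gp130 pathway genes (Cish, Lifr and Socs1), 1 immediate early gene (Ier3), 2 genes of the stress responses (Xbp1 and Hspa5) and no DLK or JNK pathway gene were called higher, and none of these passed without factors. On all wells none of 19 tested genes of the gp130 cytokine pathway was called. The separated one was Cish, a feedback inhibitor of cytokine signalling, where 1.3% of all genes were separated higher. Cish had 35.1, 32.5, 46.3 and 89 CPM after SNI and 0.0755 to 10.1 with a median of 4.18 CPM in naive mice (log2 fold change 4.02 ± 1.08, adjusted p = 0.135). The cytokine gene Il6 had 4.74, 0.524, 4.57 and 20.5 CPM after SNI and 0 to 3.13 with a median of 0.304 CPM in naive mice. In the DLK and JNK pathway 12 of 14 genes had a negative log2 fold change with a median of -0.41 and none was called. The list summed to 1151, 1215, 1144 and 1068 CPM after SNI and 1221 to 1859 CPM in naive mice. In the neuronal wells the sums overlapped, at 1301, 1466, 1219 and 1221 CPM against 1380 to 1730 CPM. Mapk10, which encodes JNK3, gave -0.06 ± 0.22 and the scaffold Spag9 -0.78 ± 0.41. None of 14 immediate early genes passed, and Fos had 1033, 684, 2904 and 152 CPM after SNI and 171 to 4289 with a median of 811 CPM in naive mice. None of 16 genes of the integrated stress and unfolded protein responses passed either, with a median of 0.33. Their chaperone gene Hspa5 had 531, 355, 708 and 355 CPM after SNI and 312 to 545 with a median of 391 CPM in naive mice.

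Of 20 growth cone and cytoskeleton genes none was called on all wells, 16 had a positive log2 fold change, and the median was 0.28. Stmn4, which stands in this list as well, was the separated one, where 1.3% of all genes were separated higher. With factors 3 were called higher in the neuronal wells, Stmn4, Tubb2a and Marcks, where 5.2% of all genes were, and none without. Tubb2a had 671, 497, 1106 and 1076 CPM after SNI and 178 to 506 with a median of 421 CPM in naive mice (1.09 ± 0.40, adjusted p = 0.242), and Map1b, a microtubule-associated protein, had 17642, 13783, 11041 and 12260 CPM against 1356 to 18247 with a median of 15648 CPM. Map1b was low in the naive mice with 2 glia-rich wells, replicates 5 and 6.

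Of 30 potassium and HCN channel subunits 1 was called, higher, where 0.502% of all genes were, and 17 had a negative log2 fold change, with a median of -0.38. The call was Kcnab1, a beta subunit, with 185, 75.9, 195 and 149.9 CPM after SNI and 0.503 to 137 with a median of 77.2 CPM in naive mice (adjusted p = 0.0984). Its groups overlapped, and its lowest naive value was that of replicate 5. Within set FACS, which does not hold that mouse, its log2 fold change was 0.42 in place of 1.98. Kcna1, the Kv1.1 subunit of large myelinated fibres, was the separated member, where 0.417% of all genes were separated lower. It was lower after SNI at 98, 92.4, 56.2 and 79.2 CPM against 102 to 528 with a median of 201 CPM (-1.22 ± 0.38, adjusted p = 0.188). In the neuronal wells its log2 fold change was -0.10, and no member of the potassium list was separated. For the potassium list the neuronal wells had 4 genes called higher and 1 lower with factors, where 5.2% and 0.889% of all genes were, and none without. Its median there was 0.11 with and -0.63 without factors, below the median of all genes in both fits (0.33 and -0.07) as on all wells. Kcnj3, a potassium channel gene outside this list, was called lower and separated in the neuronal wells without factors and is given below. On all wells none of 11 sodium channel subunits, 15 calcium channel subunits or 23 transmitter receptor subunits was called, with medians of 0.05, -0.06 and 0.43. With factors 2 sodium channel subunits, Cacna2d1 and 1 transmitter receptor subunit were called higher and 1 transmitter receptor subunit lower in the neuronal wells, again beside 5.2% and 0.889% of all genes, and none of the 3 lists had a call without factors. The median of the transmitter receptor list was 0.01 there with and -0.63 without factors. For calcium channels these were 0.55 and -0.07, and for sodium channels 0.09 and -0.58. Summed over the sodium list, the neuronal wells had 814, 888, 652 and 890 CPM after SNI and 974 to 2475 CPM in naive mice. On all wells these sums overlapped, at 632, 689, 467 and 779 CPM against 403 to 2092 CPM. The 2 highest naive sodium sums in the neuronal wells, 2475 and 2097 CPM, were those of replicates 2 and 5. Each of these mice had a well where nociceptor markers exceeded large-fibre markers. Sums of most other lists are not given here. Cacna2d1, the alpha2delta1 subunit that binds gabapentin, had 259, 129, 240 and 204 CPM after SNI and 0.78 to 351 with a median of 82.2 CPM in naive mice (1.66 ± 0.60, adjusted p = 0.24).

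Of 19 synaptic vesicle release genes 1 was called, higher, on all wells (0.502% of all genes), and in the neuronal wells 5 with factors (5.2% of all genes), among them Syt4, Cplx1 and Syp, and none without. The call on all wells was Syt4, a synaptotagmin, with 1446, 1958, 1871 and 1078 CPM after SNI and 70.2 to 1211 with a median of 619.6 CPM in naive mice (log2 fold change 1.62 ± 0.39, adjusted p = 0.0984). Its lowest SNI mouse was below the highest naive mouse, and leaving out any 1 of the 10 mice ended its call. Of 10 neurotrophic factor receptors none was called on all wells, and in the neuronal wells Gfra1, Ret and Ntrk3 were called higher with factors, 3 of 10 beside 5.2% of all genes, and none without. Gfra1, the GDNF receptor, was the separated one on all wells, where 1.3% of all genes were separated higher. It had 272, 289.8, 513 and 289 CPM after SNI and 0.0503 to 88.5 with a median of 60 CPM in naive mice (3.77 ± 1.11, adjusted p = 0.167, and 0.0168 and 0.193 in the neuronal wells with and without factors). Ntrk3, the NT-3 receptor of proprioceptors, had 198, 250.3, 288 and 214 CPM against 0.981 to 220.2 with a median of 143 CPM.

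Metabolic and housekeeping lists had no member called on all wells and medians from -0.43 to 0.10. With factors, Mcat and the ribosomal protein gene Rps27 were called higher in the neuronal wells and the fatty acid genes Acsl3 and Elovl6 lower. There 5.2% of all genes were called higher and 0.889% lower. The groups of these 4 were separated, where 1.78% of all genes were separated higher and 0.553% lower. None of the 4 passed without factors. For 22 cholesterol synthesis genes the median log2 fold change was -0.19 with 13 negative values, and Hmgcs1, which makes HMG-CoA, had 503, 511, 574 and 358 CPM after SNI and 451 to 1493 with a median of 718 CPM in naive mice. For 19 fatty acid synthesis genes the median was 0.10. The mitochondrial Mcat was separated on all wells, where 1.3% of all genes were separated higher. It had 5.35, 4.12, 4.82 and 9.34 CPM against 0.0503 to 2.49 with a median of 1.86 CPM (adjusted p = 0.13). In 80 respiratory chain subunits 62 values were negative, with a median of -0.14, and all 7 mitochondrially encoded protein genes that were tested were negative with a median of -0.43; no gene of either list passed. The 83 cytosolic ribosomal protein genes had a median of -0.00352, 41 positive and 42 negative.

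Not every called gene was seen in every mouse. Of the 118 genes called higher, 33 had at least 90% of the group's CPM in 1 SNI mouse, in 27 of them SNI 1d replicate 3, whose glia-rich well held 3.08% macrophage reads, and the part of those reads in these calls was not tested. Without SNI 1d replicate 3, 15 genes were called. In 46 of the 118, the naive mice held 3 reads or fewer in all, so that their fitted fold changes are no bound. In 63 of the 122 the higher group averaged under 10 CPM, and 15 were not of protein-coding biotype.

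The 38 genes called in the neuronal wells without factors were 33 higher and 5 lower after SNI, and in 32 and 5 of them the groups did not overlap there. Of all genes in that fit, 1.78% were separated higher and 0.553% lower. This fit was added after the values were seen. Those named next are in it and, except for Trib2, had not been named above. The values are CPM in the neuronal wells. Rhoq, a small GTPase also known as TC10, had 216, 233, 262 and 171 CPM after SNI and 20 to 64.2 with a median of 42.8 CPM in naive mice (adjusted p = 0.00825). M6pr, a mannose 6-phosphate receptor that sorts lysosomal enzymes, had 328, 253, 521 and 329 against 79.7 to 141 with a median of 125 CPM (0.0233). Cd200, a surface protein that restrains myeloid cells, had 506, 341, 589 and 452 against 142 to 226 with a median of 163 CPM (0.0247). All 3 were higher in each SNI mouse than in each naive mouse. Srxn1, the antioxidant enzyme sulfiredoxin, gave a log2 fold change of 1.62 (0.0622), the cation channel gene Trpv2 2.26 (0.0596) and the amino acid transporter gene Slc1a4 2.18 (0.0739). The 5 lower genes were Fry (-1.84), Tsc22d3, Kcnj3, Fchsd2 (-1.97) and Trib2. Tsc22d3, a glucocorticoid-induced leucine zipper protein, had 417, 436, 290.4 and 285 CPM after SNI and 660.5 to 963 with a median of 801 CPM in naive mice (0.0363). Kcnj3, the GIRK1 potassium channel, had 2.35, 3, 3.12 and 9.13 against 10.5 to 50.8 with a median of 27.8 CPM (0.0622). Both were lower in each SNI mouse than in each naive mouse.

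No gene passed the test between 1 and 3 days after SNI, although some levels lay apart. edgeR called 0 of 23507 genes between the days on all wells, with 2270 at an unadjusted p under 0.05, and 0 of 22620 in the neuronal wells, with 1707; DESeq2 with the factors called 881. SNI 3d replicate 3 had glia-rich wells only and is absent from the neuronal wells. Atf3 had 923, 435, 512 and 523 CPM at 3 days, a log2 difference of 0.72 ± 0.69 for day 1 minus day 3 (adjusted p = 0.793). Msh6 had 32.7, 35.4, 55.5 and 62.2 CPM at 3 days, below each of its values at 1 day (1.91 ± 0.85, adjusted p = 0.507). Sprr1a had 571, 185, 353 and 301 CPM at 3 days, above each of its values at 1 day (-2.59 ± 1.75, adjusted p = 0.656).

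Atf3, Sox11, Tubb6 and Sprr1a had lower levels in every mouse 1 day after SCI than in any mouse 1 day after SNI, without passing the test of the difference on all wells. On all wells edgeR called 0 genes, with 2381 at an unadjusted p under 0.05, and DESeq2 with the factors called 1095. Atf3 had 92.2, 63.4, 168 and 314 CPM after SCI, Sox11 99.3, 142, 33.2 and 144 CPM and Tubb6 20, 75.1, 26.3 and 124 CPM, each below every value after SNI. SNI minus SCI gave log2 differences of 2.57 ± 0.73, 3.15 ± 0.91 and 3.29 ± 0.79, with adjusted p-values of 0.421, 0.421 and 0.366. Sprr1a was at 0.0718, 0.0238, 0.147 and 0.165 CPM after SCI, also below every SNI value (adjusted p = 0.366).

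In the neuronal wells 114 genes were higher after SNI than after SCI (0.504%) and 29 lower (0.128%) with factors, and 2 were higher (0.00884%) and 1 lower (0.00442%) without them. Crot was one of these, with 109, 125, 136 and 51.1 CPM after SCI over all wells and a log2 difference of 1.93 in the neuronal wells without factors (adjusted p = 0.0974). Ypel5 (1.18) and Tsc22d3 (-1.27) were the others, at adjusted p-values of 0.0974 and 0.0974. These 3 were named after their values were seen. The comparison with SCI 1d shares the SNI mice with the comparison with naive mice.

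**Figure D4:**
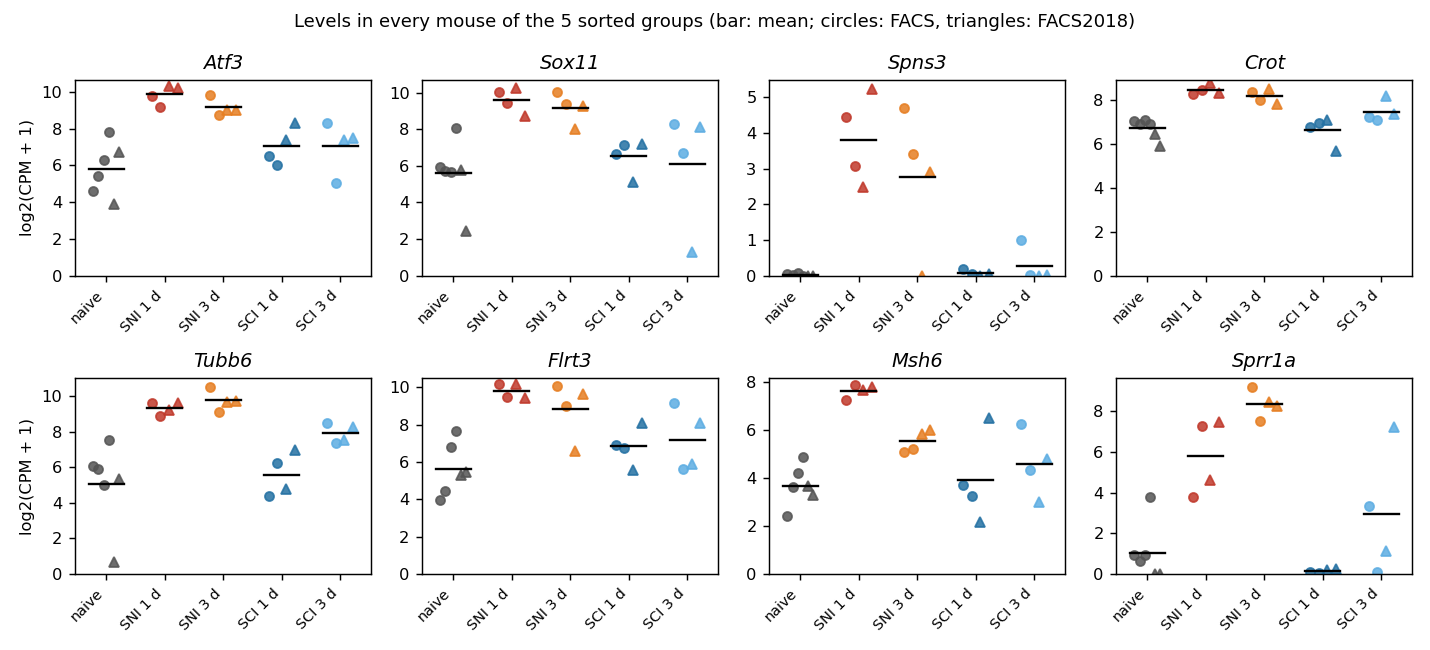
Each panel shows 1 gene on a log2(CPM + 1) axis with 1 point per mouse in naive mice (6 mice) and in SNI and SCI mice at 1 and 3 days (4 mice each), a bar at the mean, circles for set FACS and triangles for FACS2018. Atf3, Sox11, Tubb6 and Sprr1a are higher in each SNI 1d mouse than in each SCI 1d mouse, and Msh6 is higher at SNI 1 day than at SNI 3 days in each mouse.

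Promoters were searched for the sites of ATF and AP-1 factors, since Atf3 rose. In RefSeq's table for GRCm38.p6, the lookup gave a start site for 16 of the 18 genes sought (the 14 of the rule with Sox11, Adcyap1, Gadd45a and Tifa). Spns3 and Tubb6 were therefore not searched. For Atf3 the window searched, 191183334 to 191183583, lies inside the gene span given above. In the 250 bases before the start site the ATF/CRE letters TGACGTCA were found on either strand in 0 of 16 genes, where 1.77% of 27025 genes hold them, and the AP-1 letters TGANTCA in 1 of 16, where 7.82% do. That 1 match, in the promoter of Upp1, is shown because it is the only one, with the matched letters in capitals, on the plus strand of GRCm38 at chr11:9117937-9117996.
Upp1: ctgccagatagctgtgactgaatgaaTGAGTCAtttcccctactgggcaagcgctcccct
A match is no evidence of binding, and no match says only that these letters are not in this window.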

How the data were processed

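RNA of about 100 YFP-positive L4 DRG cells per well was amplified with the SMARTer Ultra Low kit and sequenced on an Illumina HiSeq. The deposited values are raw read counts per gene, made by the authors with Cutadapt, PRINSEQ, STAR 2.5.3a and HTSeq 0.6.1 on mm10; the strand setting and annotation release are not given in the sources used here, so overlapping genes on opposite strands may share reads. HTSeq lines that name no gene held 46.8% to 66.9% of deposited reads in SNI wells and 46.8% to 59.2% in naive wells and were left out. Of 53379 gene identifiers 53274 were matched to symbols. The authors also deposited 7 tables with 123 columns of per-sample values and of their own comparisons, which were not used.

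The 3 wells of a mouse were summed. Genes that reached 20 reads in any mouse were tested with edgeR 4.0.16 (TMM scaling, quasi-likelihood test, R 4.3.3) on all 5 sorted groups with 2 RUVr factors, computed from residuals of the group model centred per gene, and Benjamini-Hochberg adjusted p under 0.1 was the threshold. The factors change differences between groups as well as their spread, for Ptpn23 from a log2 fold change of 1.39 without to 2.66 with them. The scripts were tested on simulated data: where these held an unlabelled factor, the fit with factors called unchanged genes as well as changed ones, and at the spread of these data the fit without factors called neither. Calls that rest on the factors may therefore be false, and counts with and without factors are both given. CPM are reads scaled to 1e6 reads on genes, with library sizes scaled by TMM. Marker shares were compared with exact permutation tests on log2 of the percent plus 0.001. DESeq2 1.42.0 was an alternative.

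Genes were named by rule: up to 12 genes per direction, by smallest adjusted p, that were called, did not overlap between groups and averaged at least 10 CPM in the higher group; every RATF; and of each other list the called members, the member with the highest mean CPM and up to 4 by smallest p. Genes outside the rule are marked as such or, where a list's called members are named for the neuronal wells, were named after their values were seen, and results of some single genes are not reported here. The members, lists and fits were chosen with earlier results of these data known. Alternatives without glia-rich wells and without factors, and within each set, were added after the data were seen. Counting intervals cover counting error only.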

Additional observations from a re-analysis of the deposited data

Results flagged for a closer look

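Values of 74 groups of 4 to 6 mice were checked for a mouse far from the others, a check that chance trips in about 1 group in 20, and 9 were marked; medians here were taken on the log scale. Among naive mice, replicate 5 had 0.604 CPM of Tubb6 (group median 48.3), 5.39 CPM of Gm19705 (median 0.197) and 0.327 CPM of Cdc42ep2 (median 28.7). Naive replicate 3 had 0.435 CPM of Upp1, where the median was 0.0065. Among SNI mice, replicate 1 had 1.70 CPM of Trib2 (median 5.31) and 192.0 CPM of Myc (median 35.5). Fibroblast markers took 0.922% of reads in naive replicate 5 (median 0.0133%), endothelial markers 0.00396% in naive replicate 6 (median 0.000599%) and blood markers 0.155% in naive replicate 1 (median 0.000327%).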

How the results depend on the processing

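The number of genes called between SNI 1d and naive mice was 122 and depended on the fit. It was 28 at an adjusted p under 0.05, 1 with residuals not centred, 0 without RUVr factors and 6 with 1 factor. With the set named in the titles (FACS or FACS2018) as a term in place of the factors it was 0. It was 45 without a filter, 563 with only the 2 groups and 3 with naive mice of day 1 only. DESeq2 gave 1447 with and 352 without the factors. Without glia-rich wells it was 1378, or 1612 with 20 reads in at least 4 mice and 38 without factors, and with wells as libraries, which are not independent, 2969. Within set FACS and within FACS2018 it was 0, with 2552 and 2884 genes at an unadjusted p under 0.05. Leaving out 1 mouse gave 15 (without SNI replicate 3) to 151 (without naive replicate 6), with 31 without naive replicate 2, 33 without SNI replicate 4, 57 without SNI replicate 1, 67 without naive replicate 1, 70 without naive replicate 5 and 80 without naive replicate 3. DESeq2 size factors (133) and 20 reads in at least 4 mice (113) stayed within 1.5 times.

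Against SNI 3d the count was 0, and it was 881 and 201 by DESeq2 with and without factors and 2379 with wells as libraries; leaving out 1 mouse gave 0 to 0. Against SCI 1d the count was 0, and it was 1095 and 293 by DESeq2, 1 with residuals not centred, 3 with 20 reads in at least 4 mice, 32 with only the 2 groups, 143 without glia-rich wells, 297 with 20 reads in at least 4 mice as well, 3 without those wells and factors, and 2448 with wells as libraries; leaving out 1 mouse gave 0 to 1.

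Whether label numbers of SNI and naive mice of the same set and day mark pairs could not be decided from 3 such pairs. Their deviations correlated at 0.104, 0.000938 and 0.219 over 8025 genes on all wells. In the neuronal wells these were 0.191, -0.0315 and 0.14 over 8267 genes. Other combinations of an SNI and a naive mouse reached 0.273 and 0.264. With the label number as a replicate block the count against naive was 0, and 10 with the block and RUVr factors. For SNI 3d these were 0 and 355, and for SCI 1d 0 and 0.

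The 20 named genes that were called were picked because they passed in these same mice, which the refits share in whole or in part. Their kept direction in all 580 values under other settings is therefore no independent support. Of these values 301 passed the threshold. The other 119 named genes had 3413 such values, of which 148 passed in the same direction, 151 changed sign by over 1 SE without passing, and 3 changed sign and passed, all with wells as libraries: Trpv1 (-4.75), Dcn (-3.30) and Hbb-bs (3.96). The cause was not tested. Among the 20, every fit that left out 1 mouse kept the call of Atf3, Spns3 and Tubb6, and the others lost theirs in at least 1 of 10. Marker shares did not pass an adjusted p of 0.05 in any of 108 alternative values. A single list could not have passed with all mice or with 1 mouse left out, so these show no stability.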
